A study of Mus musculus with 7 samples.

Results

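The genes described are 5 subunits of DNA mismatch repair, Msh6, Msh3, Pms2, Pms1 and Mlh3, taken by symbol from the deposited gene tables, in which they are 5 of 24062 genes. Transcripts of whole mouse spleens were counted in 3 enlarged spleens of the genotype Vav1-iCre;Brca1F22-24/F22-24 and in 4 spleens labelled Brca1+/+ and C57BL6, all from mice aged 2 to 3 months. Vav1-iCre makes the Cre recombinase in blood cells, and the Brca1 allele is named for exons 22 to 24. The mutant group alone carries the recombinase, the altered allele and the enlargement, and the C57BL6 background is named for the wild type alone, so their effects cannot be told apart. The labels name separate spleens and no litters, so the tests rest on the spread from one spleen to another, which may be partly technical.

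Mismatch repair removes bases that the replicative polymerases paired wrongly and the small loops they leave in repeats. A MutS dimer finds the error: Msh6 serves mainly for single mismatches and the smallest loops, Msh3 for larger loops. A MutL dimer then directs the removal of the new strand, and here Pms2 carries the nicking activity used in most repair, Mlh3 also carries one and acts in meiotic crossing over, and Pms1 has no known activity of this kind. Msh6 and Msh3 compete for a common partner, and so do Pms2, Pms1 and Mlh3. In the spleen the pathway has another use, since B cells of the germinal centre need Msh6 for part of antibody gene mutation, and mice lacking Msh6 develop lymphomas.

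The promoters of the 5 genes are shown because 4 of the genes rose in the mutant spleens and Mlh3 did not pass the test. Each stretch runs from 250 bases before to 50 bases after the RefSeq start (build GRCm38.p6), 5′ to 3′ along the gene's own strand, and where RefSeq lists 2 starts, as for Mlh3, the one nearer to the deposited gene was taken (27 bases away, and 32 for Pms1). The capitals mark E2F words and CCAAT, each on either strand, so that ATTGG is CCAAT read on the other strand.
Msh6 (chr17:87974800-87975099, plus strand): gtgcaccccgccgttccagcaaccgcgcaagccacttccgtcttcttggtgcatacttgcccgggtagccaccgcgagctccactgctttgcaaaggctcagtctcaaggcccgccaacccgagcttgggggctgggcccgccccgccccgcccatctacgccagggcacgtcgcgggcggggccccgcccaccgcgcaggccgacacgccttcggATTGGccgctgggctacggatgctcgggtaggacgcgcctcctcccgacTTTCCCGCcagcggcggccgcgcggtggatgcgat
Msh3 (chr13:92354954-92355253, minus strand): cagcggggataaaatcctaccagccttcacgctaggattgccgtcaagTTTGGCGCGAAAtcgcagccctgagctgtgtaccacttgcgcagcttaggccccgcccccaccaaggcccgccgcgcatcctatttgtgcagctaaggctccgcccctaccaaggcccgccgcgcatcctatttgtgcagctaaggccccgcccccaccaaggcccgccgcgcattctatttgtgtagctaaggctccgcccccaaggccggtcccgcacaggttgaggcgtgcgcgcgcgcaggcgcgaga
Pms2 (chr5:143909751-143910050, plus strand): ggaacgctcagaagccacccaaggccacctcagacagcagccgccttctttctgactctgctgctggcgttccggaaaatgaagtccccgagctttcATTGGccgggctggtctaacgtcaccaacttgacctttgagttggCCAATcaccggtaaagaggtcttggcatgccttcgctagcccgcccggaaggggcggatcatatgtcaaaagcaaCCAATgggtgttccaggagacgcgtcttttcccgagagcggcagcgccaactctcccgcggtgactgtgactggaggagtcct
Pms1 (chr1:53296979-53297278, minus strand): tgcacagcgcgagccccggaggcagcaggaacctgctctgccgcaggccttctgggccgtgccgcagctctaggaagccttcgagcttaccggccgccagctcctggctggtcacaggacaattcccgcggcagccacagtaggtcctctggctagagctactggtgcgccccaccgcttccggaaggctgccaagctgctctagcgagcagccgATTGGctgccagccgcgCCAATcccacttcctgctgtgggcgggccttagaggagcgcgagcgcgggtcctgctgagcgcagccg
Mlh3 (chr12:85270542-85270841, minus strand): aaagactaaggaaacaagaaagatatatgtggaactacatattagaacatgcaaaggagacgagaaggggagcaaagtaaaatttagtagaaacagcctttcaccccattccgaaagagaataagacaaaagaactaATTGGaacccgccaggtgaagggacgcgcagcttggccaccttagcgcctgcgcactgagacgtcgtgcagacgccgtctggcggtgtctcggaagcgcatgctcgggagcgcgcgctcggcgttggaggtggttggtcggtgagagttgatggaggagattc

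The E2F words searched were TTTCCCGC, TTTGGCGC, TTTCGCGC and TTTGCCGC, the form read by the E2F factors of the G1 to S transition. Such a word began at base 16 of the Msh6 transcript, and a pair lay on opposite strands of the Msh3 promoter, overlapping each other, with first bases at -202 and -198. The windows of Pms2, Pms1 and Mlh3 held none. CCAAT occurred 3 times for Pms2, 2 times for Pms1, 1 time each for Msh6 and Mlh3, and 0 times for Msh3. The GC box GGGCGG, searched on both strands, occurred 5 times for Msh6, 4 times for Msh3, 2 times for Pms2, 1 time for Pms1 and 0 times for Mlh3. The palindromic CRE TGACGTCA occurred in none of the 5. The Mlh3 window was also the poorest in G and C, at 51.7%, against 58.3% for Pms2 and 71.7% for Msh6.

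Among all 32851 promoters of that length in the table, 2.26% held an E2F word, 37.4% held CCAAT and 35.7% held the GC box. The CRE was held by 1.79%. These promoters include those of genes not tested here, so the shares are not those of tested genes. Among tested genes matched to a promoter, 490 held an E2F word and 10687 did not. The counts with and without were 4741 and 6436 for CCAAT, 7275 and 3902 for the GC box, and 374 and 10803 for the CRE. Of the 490 tested genes with an E2F word, 45.9% were called higher in the mutant (an adjusted p under 0.05 in edgeR's test over all genes), and of the 10687 without one, 28.3% were. For CCAAT the same shares were 30.0% with and 28.4% without, for the GC box 30.0% and 27.5%, and for the CRE 34.8% and 28.9%. The shares called lower were 16.5% with and 29.2% without an E2F word, and 26.9% and 30.0% for CCAAT. They were 26.0% and 33.6% for the GC box, and 19.0% and 29.0% for the CRE. The words, and the comparison of calls with and without them, were chosen after these promoters and the members' values had been seen. None of these differences in shares was tested. These are counts of letters in a window and of calls, and no binding was measured.

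Libraries held 30660980 to 51680976 counts in the mutant and 26889712 to 63612532 in wild type. Brca1, the targeted gene, had 67.6, 47.1 and 42.7 CPM (counts scaled to a common library size by TMM) in the mutants, against 46.2, 72.8, 15.7 and 20.2 CPM in wild type. The groups overlapped, and a count over the whole gene does not show a loss of exons 22 to 24. Summed markers of mature B cells stood at 22.1 to 181 CPM in the mutant spleens, against 3216 to 4304 CPM in wild type, and those of immature T cells at 949 to 1764 CPM and 88.2 to 117 CPM. Red pulp macrophage markers, which define the tissue, stood at 286 to 1673 CPM in the mutant spleens, against 1594 to 2026 CPM in wild type over 5 of 6 markers. Wild-type 1 and 2 stood apart from wild-type 3 and 4 in dividing-cell markers (3280 and 4955 CPM against 1140 and 1445 CPM) and in erythroid markers (3198 and 6420 CPM against 604 and 719 CPM). Among the mutants, mutant 1 stood apart in erythroid markers (9791 CPM, against 1509 and 2072 CPM in mutant 2 and 3). In whole spleens, fewer cells of a type and less RNA per cell cannot be told apart.

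Transcripts of 4 of the 5 mismatch repair genes were more abundant in the mutant spleens and 0 were less abundant, with p-values from edgeR's quasi-likelihood test adjusted over all genes and a threshold of 0.05. Msh6 rose 2.90-fold, Pms1 2.33-fold, Msh3 2.24-fold and Pms2 1.90-fold, while Mlh3 stood at 1.02-fold and did not pass. Over all 15188 genes tested, 28.5% were called higher, 28.9% lower and 57.4% in all. The median log2 fold change was 1.17 over the 5 genes and -0.02 over all genes tested. The groups did not overlap for 4 of the 5 genes, the same 4 that were called, against 61.7% of all genes tested. Without wild-type 1 and 2 the same count, 4 higher and 0 lower, was found, against 2923 and 3011 of all 15474 genes tested in that fit.

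Of the mismatch recognition subunits, Msh6 (chromosome 17, 87975050 to 87990892, plus strand, mm10) stood at 199.96, 261 and 238 CPM in the mutant spleens, against 92.2, 88.1, 75.2 and 66.0 CPM in the wild-type spleens. The lowest mutant library lay 2.17-fold above the highest wild-type library. The means were 233 ± 31.0 CPM in the mutant spleens, against 80.4 ± 12.005 CPM in wild type (SD, n = 3 and 4), with a log2 change of 1.54 (SE 0.17, with an edgeR adjusted p = 0.000383). This was higher than the log2 fold change of 91.1% of genes tested. Msh6 was an abundant transcript, and by CPM it stood above 94.4% of tested genes in the mutant and above 81.4% in wild type.

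Msh3 (chromosome 13, 92211881 to 92355003, minus strand), the subunit for larger loops, stood at 44.8, 66.8 and 66.9 CPM in the mutant spleens, against 26.5, 28.5, 24.7 and 26.4 CPM in wild type. Mutant 1 was the low library of its group and still 1.57-fold above the highest wild-type library. The log2 fold change was 1.17 (SE 0.17, with an edgeR adjusted p = 0.0011). The wild-type values were tight, with a coefficient of variation of 5.80%, against 21.4% in the mutant.

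Among the MutL subunits, Pms2 (chromosome 5, 143910001 to 143931756, plus strand) had the widest spread. It stood at 44.3, 35.1 and 60.8 CPM in the mutant spleens, against 28.4, 28.0, 19.5 and 22.8 CPM in wild type. Mutant 2 lay only 1.24-fold above the highest wild-type library. The log2 fold change was 0.92 (SE 0.23, with an edgeR adjusted p = 0.00998), and it ranged from 0.69 (without mutant 3) to 1.07 (without mutant 2) when 1 library was left out.

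Pms1 (chromosome 1, 53189189 to 53296996, minus strand), a MutL subunit without a known nicking activity, was the most even of the genes that rose. It stood at 24.5, 25.2 and 28.7 CPM in the mutant spleens, against 11.6, 10.4, 11.5 and 11.3 CPM in wild type. Each mutant library lay at least 2.11-fold above each wild-type library, and the coefficients of variation were 8.45% in the mutant and 5.09% in wild type. The log2 fold change was 1.22 (SE 0.15, with an edgeR adjusted p = 0.000534).

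Mlh3 (chromosome 12, 85234520 to 85270564, minus strand), the subunit best known from meiosis, stood at 22.1, 20.1 and 17.8 CPM in the mutant spleens, against 20.6, 18.7, 18.5 and 20.8 CPM in wild type. The wild-type libraries lay inside the range of the mutant libraries. The means were 20.0 ± 2.15 CPM in the mutant spleens, against 19.7 ± 1.21 CPM in wild type, with a log2 change of 0.02 (SE 0.15, with an edgeR adjusted p = 0.915). Its sign turned with library size alone as the scaling, at -0.22, where the median of all genes moved to -0.26. Under that scaling 3153 genes were called higher and 5129 lower, against 4334 and 4390 with TMM.

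**Figure D1:**
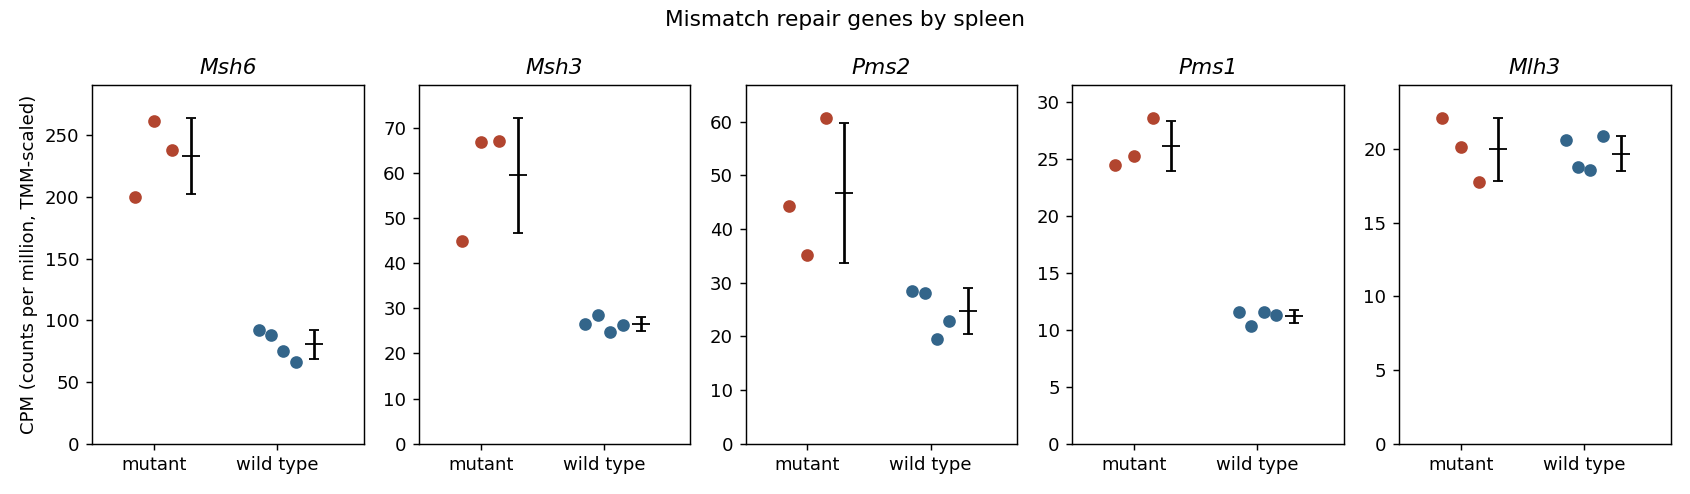
Level of each mismatch repair gene in each spleen, in CPM on a linear axis from 0, with mutant spleens (red, n = 3) left of wild-type spleens (blue, n = 4); black marks give the mean and SD. The groups are apart for Msh6, Msh3, Pms2 and Pms1, with the smallest gap for Pms2 (1.24-fold), and overlap for Mlh3.

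The subunits were also compared with one another per length, as CPM per kilobase of the exons annotated in GENCODE M21. Msh6 led at 53.7 ± 7.14 CPM per kilobase in the mutant and 18.5 ± 2.76 in wild type. The levels of the other 4 lay between 2.64 (Mlh3) and 5.76 (Pms2) CPM per kilobase in the mutant and between 1.49 (Pms1) and 3.04 (Pms2) in wild type. Msh6 made up 73.7% to 78.7% of the summed per-length level of the 5 genes in the mutant libraries and 61.7% to 67.7% in the wild-type libraries. Mlh3 made up 3.16% to 4.74% in the mutant libraries and 8.24% to 11.2% in the wild-type libraries. These shares hold for the length of all exons only. Msh3 had 11254 bases of exons against 4254 in its longest transcript, and Pms1 7542 against 3054. For Msh6 the lengths were nearly equal (4346 and 4251), so its share is smaller by longest transcript.

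With the longest transcript in place of all exons, Msh6 again stood first in both groups. Mlh3 was last in the mutant, at 3.66 CPM per kilobase, while in wild type Mlh3 and Pms1 (3.60 and 3.67) did not differ beyond their spread (coefficients of variation of 6.16% and 5.09%), and Msh3 took the second place, at 14.0 in the mutant and 6.23 in wild type. With all exons Pms2 was second in both groups, and in wild type Pms1, not Mlh3, was last. The order below Msh6, and the size of the shares above, thus rest on the transcript lengths taken. In the mutant, Pms2 and Msh3 did not differ beyond their spread per kilobase of all exons (5.76 ± 1.60 and 5.29 ± 1.13). In wild type, neither Pms2 and Mlh3 (3.04 ± 0.53 and 2.61 ± 0.16) nor Mlh3 and Msh3 (2.61 ± 0.16 and 2.36 ± 0.14) differed by more than the sum of their SDs.

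Ratios of raw counts between competing subunits do not depend on how libraries are scaled. The Msh6 to Msh3 ratio was 4.46, 3.92 and 3.56 in the mutant libraries and 3.48, 3.09, 3.04 and 2.50 in the wild-type libraries. Every mutant library was above every wild-type library, though mutant 3 and wild-type 1 nearly met. The mean difference was 0.40 on the log2 scale, or 1.32-fold (two-sided exact permutation test, p = 0.0571, the smallest that 35 splits of 3 against 4 allow by that test; 0.0857 adjusted over 3 ratios).

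The Mlh3 to Pms2 ratio was 0.498, 0.572 and 0.292 in the mutant and 0.726, 0.669, 0.952 and 0.914 in wild type. The groups again did not overlap, and the ratio was 0.542-fold in the mutant (difference -0.88 on the log2 scale, two-sided exact permutation p = 0.0571, 0.0857 adjusted over 3 ratios). The Pms1 to Pms2 ratio was 0.554, 0.719 and 0.471 in the mutant and 0.408, 0.370, 0.592 and 0.497 in wild type. These groups overlapped, with a log2 difference of 0.32 (two-sided exact permutation p = 0.286). Without wild-type 1 and 2 the log2 differences were 0.52 for Msh6 to Msh3, -1.09 for Mlh3 to Pms2 and 0.08 for Pms1 to Pms2. With 3 and 4 spleens the exact permutation test cannot give a p under 0.0571 for any of the 3 ratios.

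**Figure D2:**
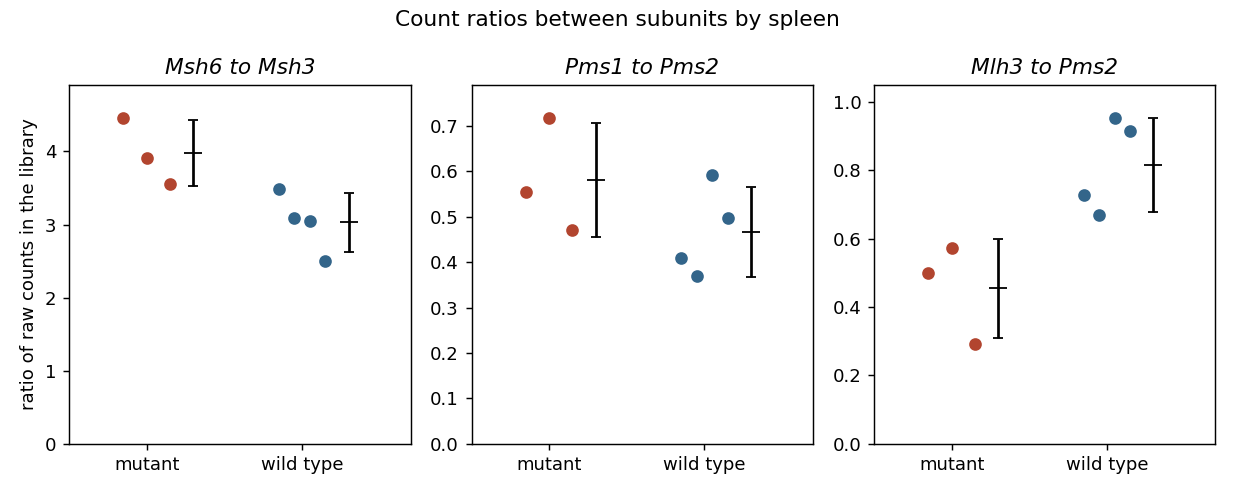
Ratio of the raw counts of 2 subunits within each library, on linear axes from 0, with mutant spleens (red, n = 3) left of wild-type spleens (blue, n = 4) and the mean and SD in black. The Msh6 to Msh3 ratio is higher in every mutant library (3.56 to 4.46) than in any wild-type library (2.50 to 3.48), the Mlh3 to Pms2 ratio is lower in every mutant library, and the Pms1 to Pms2 ratio overlaps.

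The genes also differed in how they varied within a genotype. Among the mutants, Msh6, Msh3 and Pms1 were lowest in mutant 1, Pms1 by a narrow margin (24.5 CPM, against 25.2 CPM in mutant 2). Pms2 was lowest in mutant 2 and Mlh3 in mutant 3. Mutant 1 had the highest erythroid markers and the highest red pulp macrophage markers (1673 CPM, against 744 and 286 CPM in mutant 2 and 3). It also had the lowest markers of immature T cells (949 CPM, against 1764 and 1300 CPM) and of mature T cells (880 CPM, against 2280 and 1782 CPM). Without mutant 1 the log2 fold changes were 1.72 for Msh6, 1.42 for Msh3 and 1.35 for Pms1. As these genes were lowest in mutant 1, leaving it out raises their changes by construction. Again 4 of the 5 genes were called higher and 0 lower, against 5010 and 4811 of all 15315 genes tested in that fit. The part of these cell types in the levels of the members was not tested. In wild type, Msh6 and Pms2 were both higher in wild-type 1 and 2 than in 3 and 4, and Msh3 by a narrow margin (26.48 CPM in wild-type 1, 26.38 CPM in wild-type 4), while Pms1 and Mlh3 did not split that way. Markers of dividing cells split the wild-type libraries the same way and were higher in the mutant, at 8449, 8707 and 7987 CPM summed over 16 markers, against 3280, 4955, 1140 and 1445 CPM in wild-type 1 to 4. Of these 16 markers 13 rose and 0 fell, against 28.5% and 28.9% of all genes tested, and none was at 0. Their part in the levels of the mismatch repair genes was not tested.

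Across the 4 wild-type libraries, the dividing-cell sum spanned a log2 range of 1.12 to -0.997 around its mean, and Msh6 spanned 0.21 to -0.27, Pms2 0.22 to -0.32 and Pms1 0.05 to -0.11. Without wild-type 1 and 2 the log2 fold changes were 1.72 for Msh6, 1.22 for Msh3, 1.14 for Pms2, 1.19 for Pms1 and 0.02 for Mlh3. Germinal centre B cell markers, the cells in which Msh6 serves antibody mutation, stood at 23.0, 29.4 and 30.0 CPM in the mutant spleens, against 35.6 to 54.5 CPM in wild type, with 1 of 6 higher and 3 lower. Markers of mature T cells stood at 880 to 2280 CPM in the mutant spleens, against 435 to 607 CPM in wild type over 5 of 6 markers, with 4 higher and 1 lower. Over all genes tested, 28.5% were called higher and 28.9% lower.

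**Figure D3:**
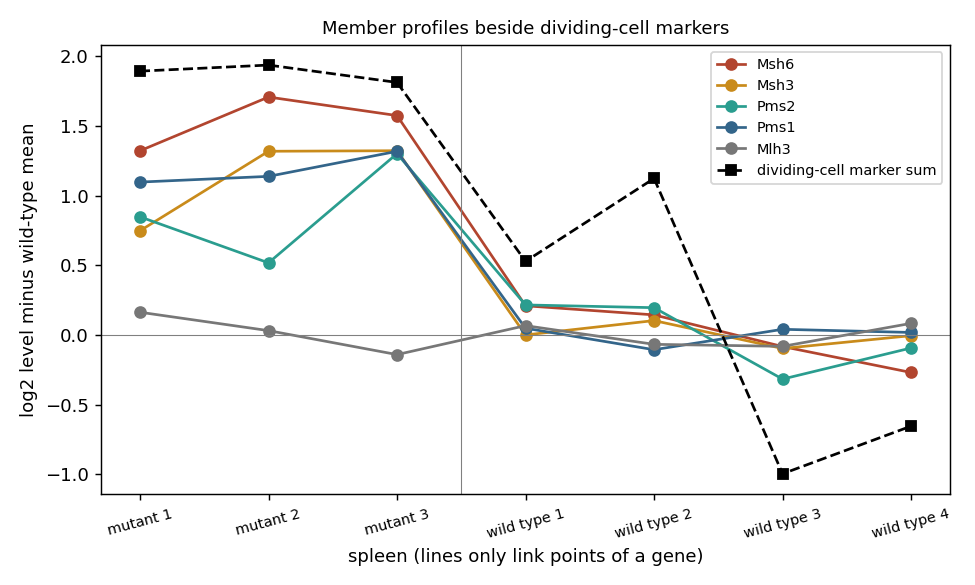
Level of each gene in each spleen on a log2 scale relative to its wild-type mean, mutant spleens left of the grey line, with the summed dividing-cell markers as black squares; lines only link the points of a gene. The black squares are at 1.81 to 1.94 in the mutants and spread from -0.997 to 1.12 in wild type, while Pms1 stays within -0.11 to 0.05 in wild type and Mlh3 stays within -0.14 to 0.16 throughout.

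Among 10815 tested genes averaging 5 CPM or more, the profiles nearest to each subunit were found by the root mean square difference of log2 levels over the 7 libraries, each relative to its wild-type mean. Nearest to Msh6 were Ndufs6, a complex I subunit (0.053), and Dpy30, a subunit of histone methyltransferase complexes (0.054). Nearest to Msh3 were Seh1l, of the nuclear pore (0.057), and Ppp1cc, a phosphatase catalytic subunit (0.059). For Pms1 they were Farsb, a phenylalanyl-tRNA synthetase subunit, and Timm21, of mitochondrial protein import (0.052 each), and for Mlh3 Usp24, a deubiquitinase (0.053), and Zfp426, a zinc finger gene (0.057). Pms2 had the least close neighbours, Cdk5rap2, a centrosome protein, and Pds5a, a cohesin regulator (0.113 each). The 2 members with the most similar profiles were Msh3 and Pms1, at 0.177. Mlh3 was the member farthest from the others, its nearest being Pms2 at 0.65.

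A further question is whether genes beside these subunits moved too, and a gene on the opposite strand is described for Pms2 and for Pms1. Pms2 and Aimp2, a scaffold of the tRNA synthetase complex, start 162 bases apart. Aimp2 stood at 46.3, 66.9 and 86.6 CPM in the mutant spleens, against 21.2, 22.9, 20.0 and 16.6 CPM in wild type (1.72, SE 0.23, adjusted p = 0.000707, edgeR).

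Pms1 and Ormdl1, a regulator of sphingolipid synthesis, start 99 bases apart, and Ormdl1 did not pass. It stood at 33.6, 32.4 and 31.6 CPM in the mutant spleens, against 33.1, 33.4, 32.7 and 37.0 CPM in wild type. The groups overlapped, with a log2 change of -0.06 (SE 0.12, with an edgeR adjusted p = 0.677), against 1.22 for Pms1. The difference between Ormdl1 and Pms1 was not tested, and without wild-type 1 and 2 again 1 of the 2 neighbours passed. Over all genes tested, 57.4% passed with all libraries and 5934 of 15474 without wild-type 1 and 2. Msh6 overlaps Fbxo11 by 34 bases at its far end, and whether counting used strand is not given in the sources used here, so reads in bases that a member shares with a gene on the other strand are of uncertain origin.

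Beyond recognition, mismatch repair needs excision, a sliding clamp with its loader, single-strand binding, resynthesis and ligation, most of which serve replication as well. A list of 21 genes held 15 of these steps, of which 14 rose and 1 fell in the mutant, with 2 meiotic MutS genes and 4 accessory genes. Of the 21, 20 were tested, of which 15 rose and 1 fell, against 28.5% and 28.9% of all genes. Their median log2 fold change was 1.27. The groups did not overlap for 17 of the 20, against 61.7% of all genes tested. Without wild-type 1 and 2 again 15 rose and 1 fell, against 2923 and 3011 of all 15474 genes tested in that fit. The summed dividing-cell markers given above were also higher in the mutant, and the part of dividing cells in these levels was not tested.

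For excision, Exo1, the exonuclease that removes the faulty strand, stood at 49.0, 72.3 and 57.3 CPM in the mutant spleens, against 12.8, 13.3, 5.38 and 8.41 CPM in wild type. The groups were far apart, with a log2 change of 2.58 (SE 0.33). All 6 genes of the clamp and its loader rose, with a median of 1.80, at the least 0.77 for Rfc2 (SE 0.20, with an edgeR adjusted p = 0.0112) and among them Rfc3 (1.83, SE 0.21) and Rfc5 (1.87, SE 0.21), both loader subunits. All 3 single-strand binding genes rose too, among them Rpa3 (1.46, SE 0.21) and Rpa1 (1.07, SE 0.19).

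Synthesis and ligation went both ways. Pold1, Pold2, Pold3 and Lig1 rose and Pold4 fell. Pold4, the smallest subunit of DNA polymerase delta, stood at 11.2, 13.7 and 13.4 CPM in the mutant spleens, against 83.3, 82.0, 98.1 and 75.6 CPM in wild type. The mutant libraries held 0.151 of the wild-type level by the fitted fold (log2 fold change -2.73, SE 0.16, adjusted p = 0.000145, edgeR). Pold3, an accessory subunit of the same enzyme, stood at 110, 138 and 118 CPM in the mutant spleens, against 67.4, 71.5, 49.3 and 55.8 CPM in wild type (1.00, SE 0.17).

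Among accessory genes, Hmgb1, a chromatin protein that assists mismatch repair in vitro, rose by 2.16 (SE 0.24). Setd2, whose histone mark recruits MSH6 in human cells, stood at 160, 162 and 188 CPM in the mutant spleens, against 223, 213, 206 and 200 CPM in wild type. The groups were apart, but the log2 fold change of -0.31 (SE 0.13, with an edgeR adjusted p = 0.071) did not pass, and it passed in limma on the deposited CPM and with library size alone (-0.56, adjusted p = 0.00845 in a range of 0.00845 to 0.295 across alternatives). With library size alone the median of all genes moved down as well, to -0.26 from -0.02 with TMM. Mcm9 (0.03, SE 0.15) and Fan1 (-0.29, SE 0.24) did not pass either. Of the meiotic MutS genes, Msh5 did not pass (0.72, SE 0.30, adjusted p = 0.0715, edgeR), but passed in DESeq2 and without mutant 3 (0.96). It stood at 0.45 without mutant 2 and at 0.49 with library size alone, and its edgeR, DESeq2 and limma adjusted p ranged from 0.018 to 0.263 over the alternatives. Msh4 was too low to test, at 0.106 to 0.195 CPM in the mutant spleens, against 0.0443 to 0.148 CPM in wild type.

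**Figure D4:**
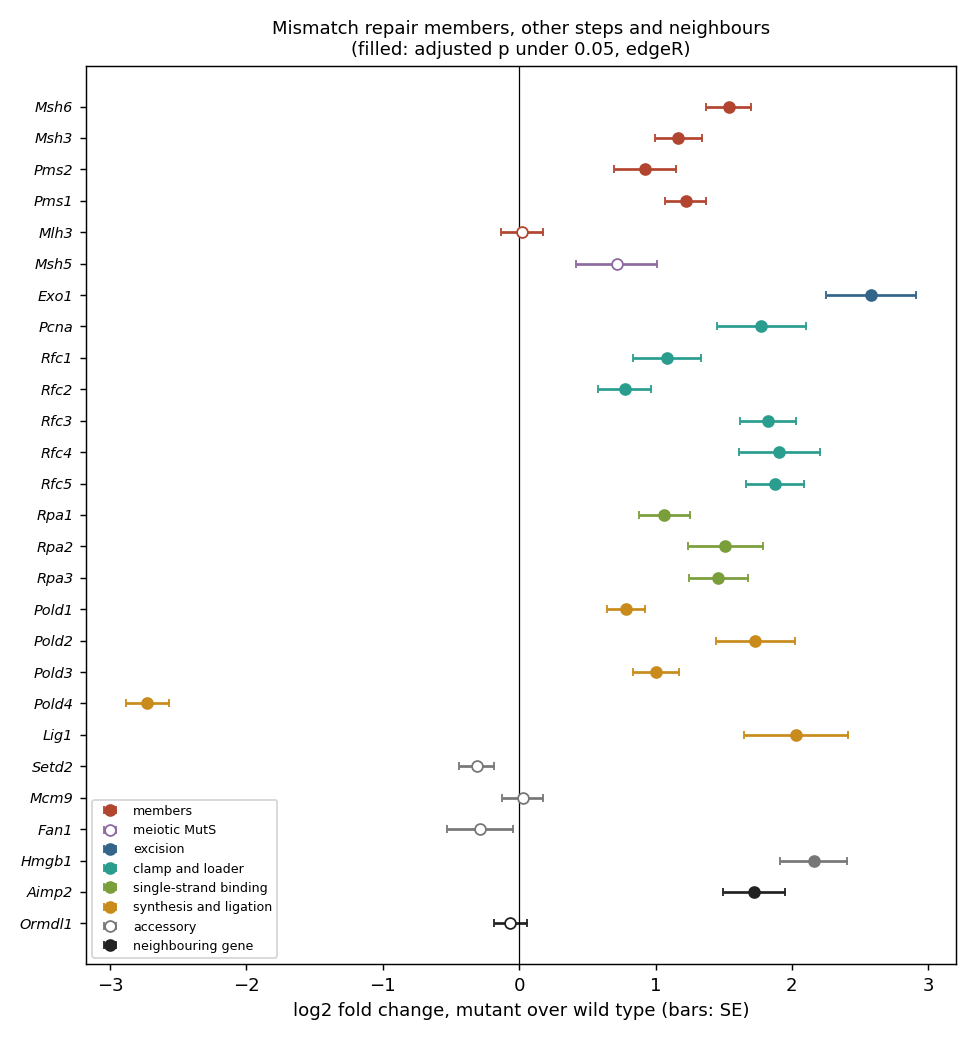
Log2 fold change, mutant over wild type, with SE, for the 5 mismatch repair genes, the 20 other genes of the pathway list that were tested and 2 genes that start beside a member; filled points passed an adjusted p under 0.05 in edgeR. Msh6, Msh3, Pms2 and Pms1 lie at 0.92 to 1.54, Mlh3 at 0.02, Exo1 at 2.58 and Pold4 alone past the threshold on the lower side at -2.73.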

How the data were processed

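RNA of 7 spleens was sequenced, and the submitters' processing notes name build mm10, TopHat2 (2.0.12), bcl2fastq (2.17.1.14), Subread (1.4.6) with featureCounts, and edgeR, with settings not given in the sources used here. Raw counts for each gene and a CPM table were deposited by the authors, and in the CPM table each deposited value is the raw count times 1 constant per library (largest relative deviation 5.1e-15) and genes with 0 counts have none. Deposited start positions are counted from 0 and are printed here counted from 1. From the raw counts, edgeR 4.0.16 (R 4.3.3) gave the main test, with TMM, filterByExpr, group as the only term and Benjamini-Hochberg adjustment over 15188 genes. It was also run on simulated data in which few genes changed. That run cannot show how the scaling behaves where 57.4% of genes are called, as here. SE is the log2 fold change over the square root of F. CPM use the same TMM factors and are given with SD. Ratios used exact permutation tests in scipy 1.17.1. Promoters are from RefSeq (5 of 5 matched) and exon lengths from GENCODE M21, which may differ from the authors' gene models. Alternatives were other scalings, no filter, DESeq2 1.42.0, edgeR's exact test, limma 3.58.1 (voom, and on the log2 deposited CPM with 1 or 0.1 added), a replicate block, a threshold of 0.01 and libraries left out. Named genes were the 5 members, in each role of the other steps up to 2 genes with the smallest p and any that went against most of the list, genes starting within 1000 bases on the opposite strand, and the 2 nearest profiles of each member; Mcm9, Fan1, Pold1, Pold2, Lig1 and Msh4 were named after their values were seen, to complete a count, and 1 gene that this rule names is not reported here. The members and lists were chosen with earlier results of these data known, and the promoter words were added after the members' values and promoters had been seen.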

Additional observations from a re-analysis of the deposited data

How the results depend on the processing

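Over the 18 alternatives to the test across genes, Msh6 (1.30 to 1.72), Msh3 (0.92 to 1.42) and Pms1 (0.97 to 1.35) kept their direction and their side of the threshold. Pms2 (0.68 to 1.14) did so except with the replicate block (0.87, adjusted p = 0.0814, range 0.00073 to 0.0814 over its alternatives), where 3 of the 5 genes and 14 genes of other steps were called, Rfc1 and Rfc2 losing their call. Calls were fewer over all genes too, at 6090 of 15188 with the block against 8724 in the main test. The labels name no pairs of spleens. Same-numbered libraries had correlations of their deviations of 0.106, -0.216 and 0.133, and differently numbered ones of -0.265 to 0.246. With so few libraries these correlations cannot settle whether the numbers pair the spleens, and the cause of the lost call was not tested. Mlh3 passed under none of them and changed sign with library size alone (-0.22) and when 1 library was left out (-0.017 to 0.11). Mcm9 likewise changed sign with library size alone (-0.22) and when 1 library was left out (-0.0094 to 0.12). Calls among other steps numbered 14 to 17 and among neighbours 1 throughout, while those over all genes tested numbered 5934 to 9821. The ratios kept their direction under their 11 alternatives, at 0.31 to 0.52, 0.08 to 0.46 and -1.09 to -0.59 on the log2 scale for Msh6 to Msh3, Pms1 to Pms2 and Mlh3 to Pms2. With 3 and 4 spleens their exact permutation tests cannot pass 0.05.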
